A study of Mus musculus with 1111 samples.

Results

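The genes described here encode the nuclear-encoded subunits of the respiratory chain and of the mitochondrial ATP synthase in microglia, the resident macrophages of the brain. Members were all genes whose names begin with Nduf, Cox4 to Cox8, Uqcr or Atp5, or are Sdha, Sdhb, Sdhc or Sdhd, leaving out 1 name that marks a pseudogene. The rule gave 94 members of the 35583 genes in the count tables: 36 of complex I, 8 complex I assembly factors, 4 of complex II, 8 of complex III, 20 of complex IV and 18 of complex V, the ATP synthase. Of these, 93 symbols are distinct, since Atp5o stands on 2 gene identifiers. Single microglia had been sorted from 3-month-old mice 20 hours after injection of plasma proteins coupled to the red fluorescent dye NHS-Atto647N, and each cell was profiled with Smart-seq2, a plate-based method that reads full-length transcripts. The 3 groups differ in the plasma signal inside the cell, from plasma none over plasma low to plasma high, and all 3 come from injected mice, so there is no group without injected plasma protein. The labels name no animal. They give a well and a number from 1 to 3 after the letters TH, whose meaning is not stated. The TH numbers serve as 3 sets of wells. Every error below is the SD over them (n = 3), not a spread between animals, and no p-value is given. By the well labels, at least in TH 1, each plasma group fills its own block of plate columns. Plasma group and plate position therefore cannot be told apart, and leaving out the outermost wells does not separate them.

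The respiratory chain takes electrons from NADH at complex I and from succinate at complex II, passes them by ubiquinone and complex III to cytochrome c, and hands them at complex IV to oxygen. Complexes I, III and IV pump protons across the inner mitochondrial membrane, and complex V lets them flow back to make ATP. A few subunits of complexes I, III, IV and V are encoded in the mitochondrial genome, while all the genes described here sit in the nucleus, so the 2 genomes supply the same enzymes. Microglia use both glycolysis and oxidative phosphorylation, and phagocytosis and proton pumping into lysosomes draw on ATP.

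After a filter for at least 50000 reads and 500 genes per cell, 987 cells were left, and plasma none, low and high held 35.1%, 35.6% and 29.4% of them. Reads were summed for each group and TH number, which gave 9 sums of 21309816 to 49323522 reads. The mean over TH numbers of the median reads per cell was 217146, 250870 and 289558 in the same order, so depth per cell moved with the groups. The 8 microglial markers, such as P2ry12 and Tmem119, were present in every sum and together reached 47633 to 56517 CPM (a gene's reads as a share of all reads in genes, scaled to the usual total). The 5 neutrophil and the 5 lymphocyte markers were listed at 0 in all 9 sums. Of 6 markers of border-associated macrophages, 4 (Pf4, Cd163, Lyve1 and F13a1) were at 0, and the list summed to 0.217 to 1.34 CPM in plasma none, 0 to 4.5 CPM in plasma high and 2.64 to 22.2 CPM in plasma low. Oligodendrocyte markers summed to 21.2 to 68.9 CPM in plasma none, 28.6 to 60.9 CPM in plasma low and 56.4 to 83.4 CPM in plasma high, with Mog at 0. Neuron markers reached at most 0.646 CPM in plasma none, 4.88 CPM in plasma low and 58.1 CPM in plasma high, where the lowest sum was 0.149 CPM. Astrocyte markers reached at most 5.4 CPM, 27.8 CPM and 4.95 CPM, group by group in the same order, with Gja1 at 0. The part of these markers in the results was not tested.

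In plasma high against plasma none the respiratory chain genes were higher by a small amount that was spread over the complexes. The summed level of all members was 4900.2, 4661 and 4338 CPM in TH 1, 2 and 3 of plasma none. It was 5837, 4816 and 4612 CPM in plasma low, and 5593, 5704 and 4830.3 CPM in plasma high. Each plasma high sum stood above the plasma none sum of its own TH number, although the lowest of plasma high fell within the range of plasma none. The means were 4633 ± 282.3, 5088 ± 656 and 5376 ± 476 CPM. The log2 ratio taken within TH numbers was 0.21 ± 0.07 for plasma high against plasma none, a difference of 15.9%. It was 0.13 ± 0.11 for plasma low against plasma none and 0.08 ± 0.15 for plasma high against plasma low, and the last of these was no larger than its spread. CPM is a share of a cell's reads, so these values do not measure the RNA content of a cell.

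**Figure D1:**
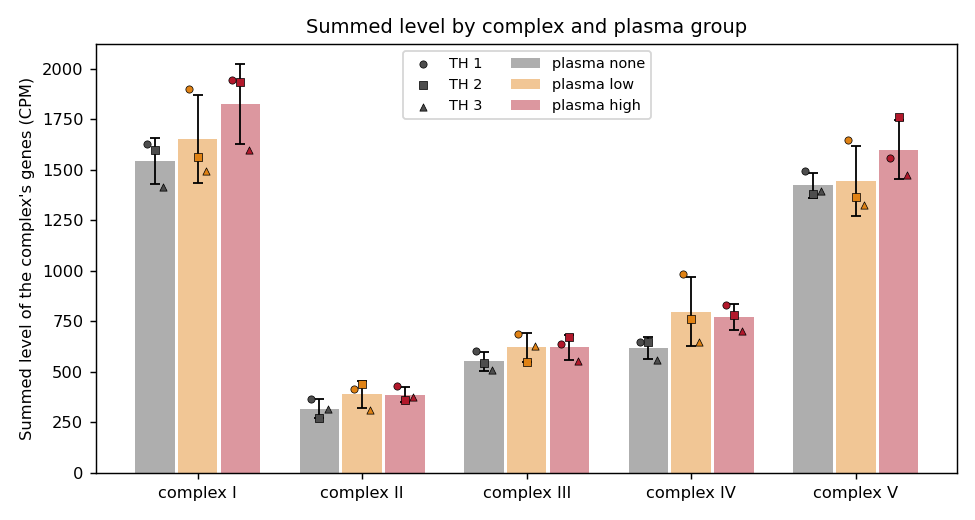
Summed level of the genes of each complex in CPM (y axis) for the 3 plasma groups; bars are means over 3 TH numbers, error bars the SD, and circles, squares and triangles TH 1, 2 and 3. Complex I averages 1545 CPM in plasma none and 1824 CPM in plasma high, and complex IV 619 and 771 CPM.

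All 5 complexes had a sum in plasma high above that of plasma none in 3 of 3 TH numbers. The log2 ratio of the sums was 0.32 ± 0.05 for complex IV, 0.29 ± 0.10 for complex II, 0.24 ± 0.05 for complex I, 0.17 ± 0.12 for complex III and 0.17 ± 0.16 for complex V. The complex I assembly factors, which help to build the enzyme and are not part of it, were at -0.03 ± 0.26. In plasma low against plasma none only complexes III and IV were higher in 3 of 3 TH numbers, at 0.17 ± 0.15 and 0.35 ± 0.22. Complex V was at 0.02 ± 0.11 there.

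Gene by gene, a gene was retained with a mean of at least 20 CPM over the 9 sums and with reads in 10% of cells or more in 1 group, which kept 71 of the 94 members among 5761 genes. It was called with the same sign of the log2 ratio in 3 of 3 TH numbers and a mean log2 ratio that reached 0.5 in size, a fold of 1.41, on the scale of CPM plus a pseudocount of 1. In plasma high against plasma none 8 of 71 members (11.3%) were called higher and 0 lower. Over all retained genes 11% were called higher and 8.30% lower, so the share of members called higher is near the background. The balance differed more: 60 of 71 members had a mean ratio above 0, against 3132 of all 5761 genes. The median log2 ratio was 0.25 ± 0.06 over the members and 0.05 ± 0.02 over all genes. Without the minimum size, 18 members were higher in 3 of 3 TH numbers (25.4%, background 18.4%) and 1 was lower (background 13.7%). For 6 of 71 members (Ndufa1, Ndufa3, Ndufs8, Cox4i1, Cox7c and Ndufa4) all 3 plasma high values lay above all 3 plasma none values, against 8.28% of all genes. This share of members is near the background, so lack of overlap does not set these members apart. None lay wholly below, against 5.38%.

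Most members are short transcripts, with a median spliced length of 737 bases, and 43 of the 71 retained are of 1000 bases or less. Among all 579 retained genes of that length the median log2 ratio was 0.16 ± 0.07, with 13.8% called higher, 7.43% called lower and 28.2% higher in 3 of 3 TH numbers. Among the 1825 genes with at least 100 CPM these shares were 8.88%, 6.47% and 21.2%. Short genes as a whole thus moved the same way as the members, and the part of length in the members' ratio was not tested further. With TH 1, 2 or 3 left out, where the rule needs 2 of 2 TH numbers, 21 of 72, 8 of 72 and 14 of 74 members were called higher. The backgrounds were then 17.3%, 15.2% and 18.5%, so the members stood above the background without TH 1, below it without TH 2 and near it without TH 3. In the same order 5, 1 and 3 members were called lower, with backgrounds of 13.9%, 13.2% and 15%. With every cell thinned to the same 50000 reads, 16 of 75 members were called higher and 1 lower, with a background of 9.23% and 7.69%. The count of calls therefore depends on these choices, while the sign of the median did not change in any of them.

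**Figure D2:**
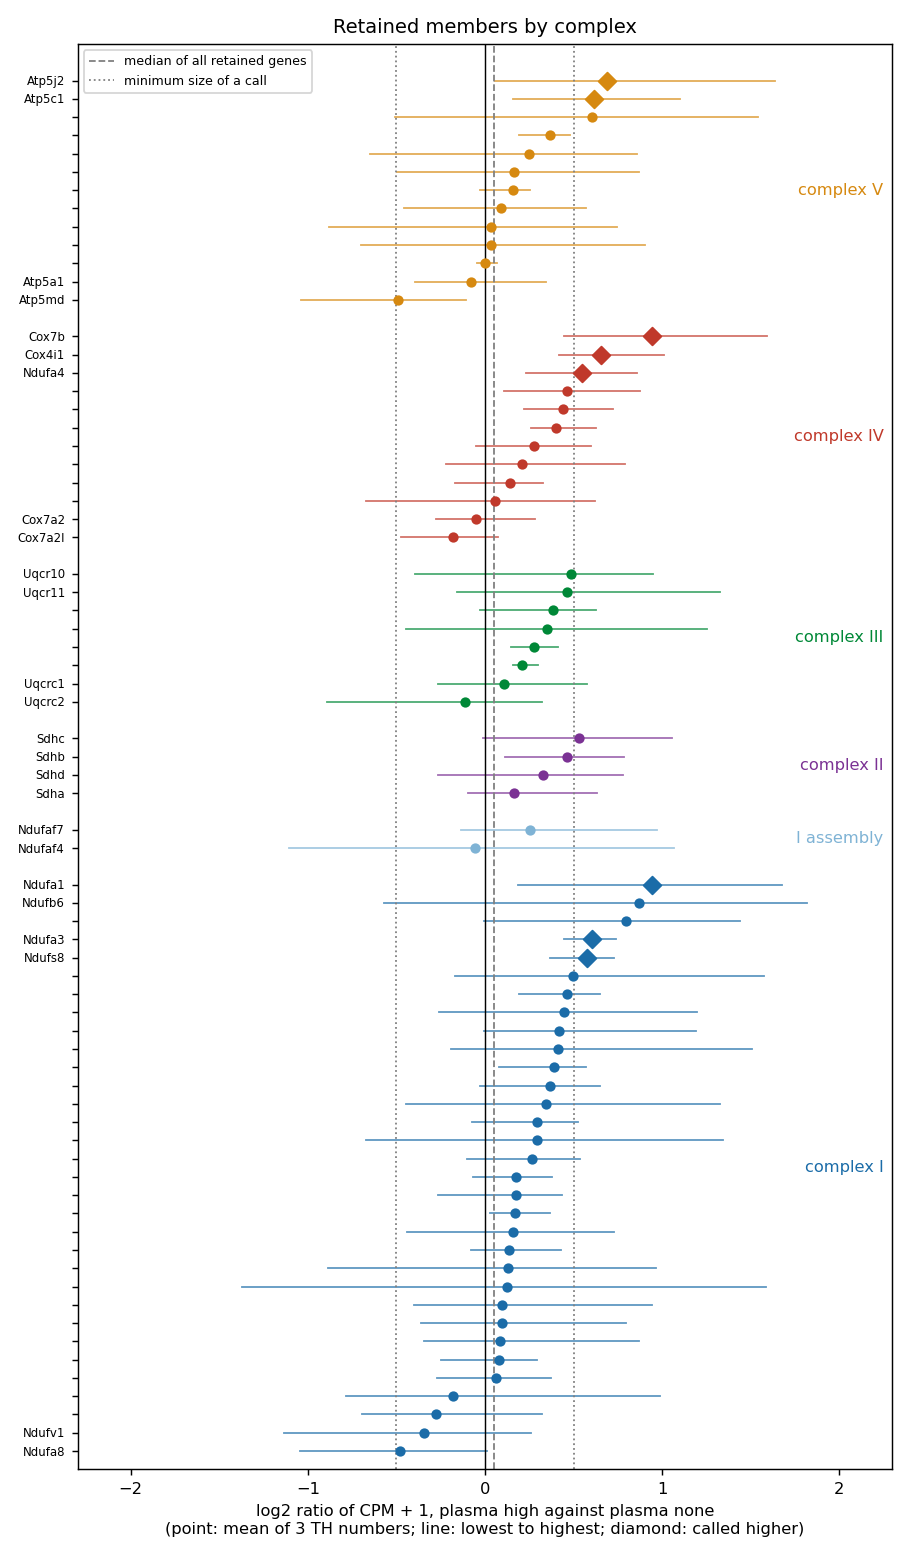
Mean log2 ratio of CPM + 1 in plasma high against plasma none (x axis) for the 71 retained members by complex; points are means of 3 TH numbers, lines run from the lowest to the highest, and diamonds mark the 8 members called higher; names are given for these and for the 2 largest and 2 smallest ratios of each complex. Most points lie right of 0 and many lines cross it.

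The share of cells in which a member was read differed more clearly than the summed level. Each cell was thinned to 50000 reads, so that total reads per cell were equal. In plasma high against plasma none 47 of 71 members (66.2%) were read in a larger share of cells in 3 of 3 TH numbers, and 0 in a smaller share. Over all retained genes 34.8% were read in more cells and 4.81% in fewer, and among those of 1000 bases or less 50.8% were read in more. The median difference was 6.95 ± 1.62 percentage points over the members, 2.46 ± 1.17 over all genes and 4.95 ± 0.959 over the short genes. For 29 members all 3 plasma high shares lay above all 3 plasma none shares. The matching count over all genes was not computed, so lack of overlap in this share does not set a member apart. In plasma low against plasma none 47 of 71 members were likewise read in more cells and 0 in fewer, with backgrounds of 38.7% and 3.33%. The 2 comparisons share plasma none, so they are not independent. Between plasma high and plasma low, 13 members were read in more cells and 10 in fewer, with backgrounds of 11.9% and 15.9%. In that comparison leaving out TH 1, 2 and 3 gave 28, 17 and 22 in more cells, where the backgrounds in 2 of 2 TH numbers were 24.7%, 20.3% and 24.6%. It gave 15, 18 and 17 in fewer cells, with backgrounds of 26.7%, 31.7% and 27%. Without thinning, 52 members were read in more cells of plasma high than of plasma none (background 38.2%), and with the outermost wells left out 44 were (background 31.4%).

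Cox4i1 encodes the common form of subunit 4 of complex IV and showed the largest difference in this share. It was read in 43.1%, 36.3% and 38.5% of plasma none cells and in 58.4%, 55.2% and 58.1% of plasma high cells in TH 1, 2 and 3. Plasma low lay at 66.1%, 56.4% and 46.6%, so plasma none was below both other groups without overlap. Next came Atp5j2, a small membrane subunit of the ATP synthase, with 26.9% ± 4.43 in plasma none and 43.6% ± 6.04 in plasma high. Ndufa3, an accessory subunit of complex I, went from 28.7% ± 3.98 to 43.7% ± 5.24. At the other end Ndufs3, a core subunit of complex I, was at 21.4% ± 2.15 and 21.4% ± 1.44. The 2 retained assembly factors were the members whose mean share was lower in plasma high, Ndufaf4 at 13.6% against 12.5% and Ndufaf7 at 14.8% against 14.4%.

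**Figure D3:**
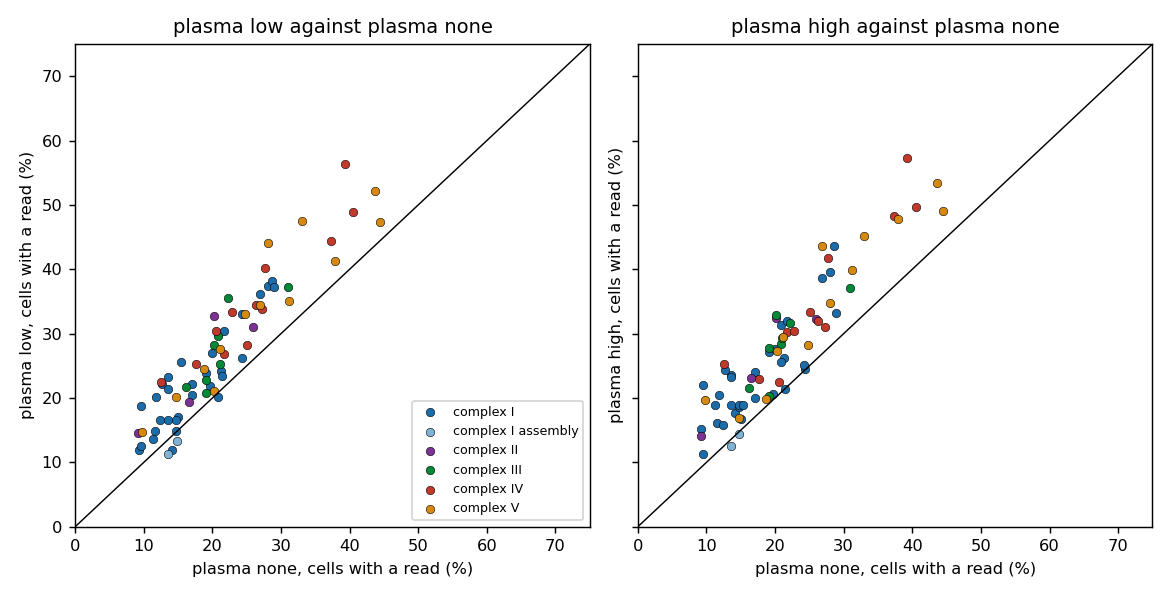
Percent of cells with at least 1 read of each of the 71 retained members in plasma none (x axis) against plasma low (left, y axis) and plasma high (right, y axis), each cell thinned to 50000 reads, mean of 3 TH numbers; the line marks equal shares and colours mark complexes. In plasma high 69 of 71 members lie above the line and in plasma low 67.

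Per cell the same difference held against the number of genes read. At 50000 reads the median plasma none cell had 15.7 ± 0.577 of the 94 members and 1532 ± 69.5 genes of any kind. The median plasma low cell had 21.3 ± 3.21 members among 1814 ± 190.3 genes, and the median plasma high cell 21.3 ± 1.53 among 1740.2 ± 106.2. The total number of genes read per cell was thus higher in both plasma-containing groups. Members made up 1.05%, 1.14% and 1.01% of the genes read in TH 1, 2 and 3 of plasma none. They made up 1.26%, 1.20% and 1.18% in plasma low and 1.24%, 1.31% and 1.23% in plasma high. Every value of plasma low and of plasma high exceeded every value of plasma none. From plasma none to plasma high this share of genes differed by 0.189 ± 0.0232 percentage points of the genes read. The share of a cell's reads in members was 0.445% ± 0.0372, 0.494% ± 0.0788 and 0.518% ± 0.0519 in the median cell of plasma none, low and high. In plasma high it was above plasma none by 0.0735 ± 0.0296 percentage points, in 3 of 3 TH numbers.

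**Figure D4:**
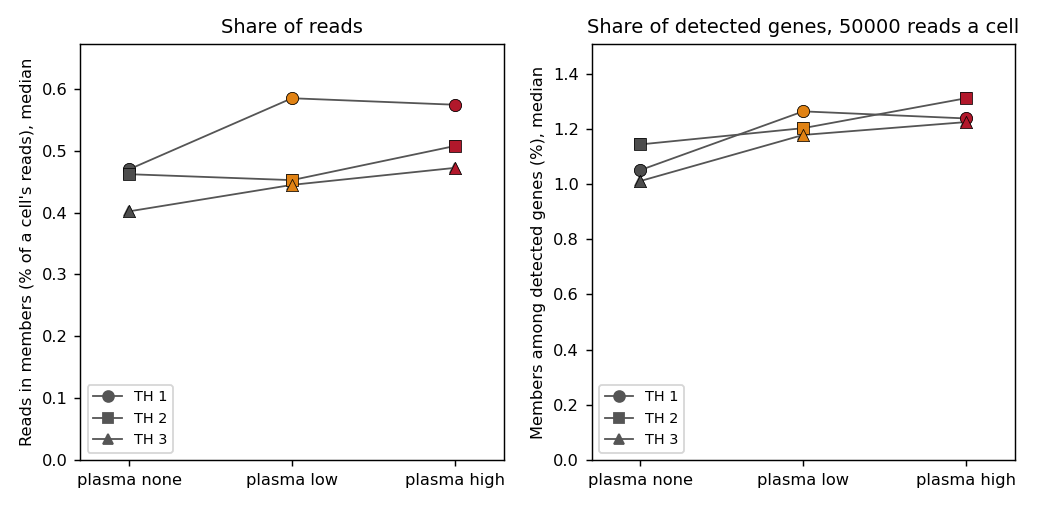
Members as a percent of a cell's reads (left) and as a percent of the genes read at 50000 reads per cell (right), median over cells in each plasma group; each line joins the 3 groups of 1 TH number. On the right the 3 plasma none medians, from 1.01% to 1.14%, lie below all 6 others.

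The promoters of these genes are known for binding sites of nuclear respiratory factor 1 (NRF1), of the ETS factor GABPA and of YY1. RefSeq promoter windows of GRCm38.p6, from 250 bases before to 50 after the start, were matched to 77 members (76 RefSeq genes), and 4 motifs were searched on both strands. The NRF1 core CGCATGCG stood in 11 of 76 member genes (14.5%) and in 2.77% of 17492 coding genes. The ETS core CCGGAAG stood in 19 (25%, against 12.9% of coding genes), and the YY1 core AAGATGGCG in 8 (10.5%, against 2.14%). The box CCAAT, a common promoter element, stood in 34 (44.7%, against 42.3%). ETS and YY1 matches shared bases in 0 member windows. Of 7 retained members with an NRF1 core 0 were called higher in plasma high, with a median log2 ratio of 0.16. Of 53 retained members without it 7 were called, with a median of 0.28. Over all retained genes 11% were called higher, so counts this small cannot tell the members with the core from those without. For the YY1 core the medians were 0.16 in 6 members with it and 0.26 in 54 without, and for the ETS core 0.28 in 15 with it and 0.25 in 45 without. A match describes letters in a window and is not a binding site shown by these data.

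The first 2 windows below carry the NRF1 core, and the other 3 belong to members called higher in plasma high. Motif matches on either strand are in capitals, each window is read along its gene, and all 5 come from the RefSeq table of GRCm38.p6. Atp5j lies at chr16:84834927-84835226 (minus strand) and Cox6a1 at chr5:115348909-115349208 (minus). Atp5j2 lies at chr5:145191492-145191791 (minus), Ndufs8 at chr19:3912725-3913024 (minus) and Cox7b at chrX:106015450-106015749 (plus).
Atp5j: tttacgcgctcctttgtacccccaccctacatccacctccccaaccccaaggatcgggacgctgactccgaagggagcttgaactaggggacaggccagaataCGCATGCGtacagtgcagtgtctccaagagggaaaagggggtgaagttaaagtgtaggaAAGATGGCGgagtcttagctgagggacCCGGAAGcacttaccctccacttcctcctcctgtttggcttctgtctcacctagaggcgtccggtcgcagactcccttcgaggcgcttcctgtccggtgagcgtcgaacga
Cox6a1: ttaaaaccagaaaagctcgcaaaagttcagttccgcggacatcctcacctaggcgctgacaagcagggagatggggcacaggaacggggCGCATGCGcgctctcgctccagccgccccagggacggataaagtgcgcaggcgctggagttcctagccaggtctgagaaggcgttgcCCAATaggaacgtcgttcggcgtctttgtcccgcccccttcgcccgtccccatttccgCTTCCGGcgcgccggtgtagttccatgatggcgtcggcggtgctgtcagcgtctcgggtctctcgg
Atp5j2: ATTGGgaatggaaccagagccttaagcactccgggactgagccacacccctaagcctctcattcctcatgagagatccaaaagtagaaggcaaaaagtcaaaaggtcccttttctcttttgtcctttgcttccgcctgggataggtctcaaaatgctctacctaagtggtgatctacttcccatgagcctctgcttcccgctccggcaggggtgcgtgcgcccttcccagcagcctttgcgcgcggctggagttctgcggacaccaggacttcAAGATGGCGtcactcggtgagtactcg
Ndufs8: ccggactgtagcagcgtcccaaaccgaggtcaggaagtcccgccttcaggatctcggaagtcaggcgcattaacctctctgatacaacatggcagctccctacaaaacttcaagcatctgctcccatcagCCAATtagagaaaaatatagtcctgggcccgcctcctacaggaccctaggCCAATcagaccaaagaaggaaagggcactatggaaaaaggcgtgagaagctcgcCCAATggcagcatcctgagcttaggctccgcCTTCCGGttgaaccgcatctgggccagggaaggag
Cox7b: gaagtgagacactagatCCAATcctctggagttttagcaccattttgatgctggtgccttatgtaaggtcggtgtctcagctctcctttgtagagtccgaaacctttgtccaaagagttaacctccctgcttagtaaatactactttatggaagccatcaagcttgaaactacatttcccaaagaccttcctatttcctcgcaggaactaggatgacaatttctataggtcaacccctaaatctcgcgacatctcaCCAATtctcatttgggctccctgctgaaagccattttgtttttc
The Atp5j window, of the coupling factor 6 subunit of the synthase, holds the NRF1, YY1 and ETS cores within its middle part. It is 1 of 2 windows matched to that gene, and the other holds none of the 4 motifs. Atp5j itself was at 71.8 CPM in plasma none and 80.97 in plasma high (log2 ratio 0.16 ± 0.16). Ndufs8 carries an ETS core on the opposite strand close to the start and CCAAT boxes upstream.

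Complex I oxidises NADH and is the largest enzyme of the chain. Of its 32 retained subunits 28 had a mean ratio above 0 in plasma high against plasma none, and the median log2 ratio was 0.22 ± 0.13. Of the 32, 3 were called higher and 0 lower, where 11% and 8.30% of all retained genes were. The same backgrounds apply to the calls of each complex below. Ndufa1, an accessory subunit on the X chromosome (chrX:37187588-37191163), stood at 7.89, 17.4 and 17.6 CPM in plasma none. It stood at 27.5, 19.96 and 35.2 CPM in plasma high, and the groups did not overlap. Its log2 ratio was 0.94 ± 0.75, and removing the cell with the most Ndufa1 reads from every sum gave 0.94 again, but the TH numbers no longer had 1 sign and no call was made. Ndufa3 (chr7:3617373-3620327) was steadier, with 27.4, 27.8 and 20.2 CPM in plasma none and 46.3, 43.5 and 27.8 CPM in plasma high. The ratio on the log2 scale was 0.60 ± 0.15, and it was called under each of the 16 alternatives.

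Core subunits of complex I carry the flavin and the iron-sulphur clusters. Ndufs8, which binds 2 of the clusters (chr19:3908863-3912774), was at 58.8, 60.7 and 60.03 CPM in plasma none. It was at 90.9, 101.4 and 77.8 CPM in plasma high, above all values of plasma none, with a log2 ratio of 0.57 ± 0.19. The call was not made in 4 of 16 alternatives, among them thinned cells. Of the other core subunits 5 had these ratios, and none of them was called: Ndufs3 had a log2 ratio of 0.46 ± 0.24, Ndufv2 0.45 ± 0.73, Ndufs1 0.18 ± 0.22, Ndufs7 0.06 ± 0.32 and Ndufv1, which binds the flavin, -0.35 ± 0.72. These core subunits thus lay on both sides of 0. Ndufb6, an accessory subunit, had a log2 ratio of 0.87 ± 1.27 from 41.2, 28.6 and 8.42 CPM in plasma none and 27.4, 75.5 and 32.1 CPM in plasma high, so its TH numbers went both ways, and 26.3% of its plasma high reads came from 1 cell. The lowest ratios were those of Ndufa8, an accessory subunit, at -0.48 ± 0.53, and Ndufv1. Per length, the highest levels in complex I were those of the accessory subunits Ndufa6 and Ndufc2, at 176.8 and 160.6 CPM per kb of spliced transcript.

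Complex II, succinate dehydrogenase, is the one complex encoded wholly in the nucleus, and it also acts in the citric acid cycle. All 4 subunits had a mean ratio above 0, 0 were called, and the median log2 ratio was 0.39 ± 0.09. Sdhb, the iron-sulphur subunit, was at 133.2, 66.8 and 73.96 CPM in plasma none. Plasma low had 155.7, 118.6 and 96.15 CPM, and plasma high 144.2, 115.8 and 103.9 CPM. Within each TH number plasma none was lowest, with a log2 ratio of 0.46 ± 0.34 in plasma high, yet the ranges overlapped. Its share of cells was 20.2% ± 4.11 in plasma none and 32.4% ± 0.231 in plasma high, without overlap, as held for 29 retained members. Sdhc and Sdhd, which anchor the enzyme in the membrane, had log2 ratios of 0.53 ± 0.53 and 0.33 ± 0.54. Sdha, the flavoprotein with the active site, was at 0.16 ± 0.41. Per length Sdhb and Sdha were highest, at 98.1 and 51.9 CPM per kb.

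Complex III passes electrons from ubiquinol to cytochrome c. Of its 8 retained subunits 7 had a mean ratio above 0, 0 were called in plasma high against plasma none, and the median log2 ratio was 0.31 ± 0.17. Uqcrh, a hinge protein next to cytochrome c1, had a small and even ratio of 0.21 ± 0.08. It was read in 23.3%, 16.8% and 20.5% of plasma none cells and in 37.6%, 35.4% and 25.8% of plasma high cells. These shares did not overlap, as held for 29 retained members. Uqcr10 and Uqcr11, small subunits, had the largest ratios, 0.49 ± 0.77 and 0.46 ± 0.77, both with TH numbers on either side of 0. Uqcrfs1, the Rieske iron-sulphur protein that takes the first electron, was at 0.38 ± 0.35. The core proteins Uqcrc1 and Uqcrc2 were at 0.11 ± 0.43 and -0.11 ± 0.68, the lowest of the complex. Uqcrc1 and Uqcrh were highest per length, at 110 and 104.9 CPM per kb.

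Complex IV, cytochrome c oxidase, had a median log2 ratio of 0.34 ± 0.03, and of 0.10 when all its members were taken in with no filter on low genes. Of 12 retained members 10 had a mean ratio above 0, and 3 were called higher (background 11%). In 3 of 3 TH numbers 6 were higher (background 18.4%) and 0 were lower (background 13.7%). Cox4i1 (chr8:120668222-120674207) was at 131.6, 103.3 and 125.3 CPM in plasma none, 193.7, 187.2 and 107.2 CPM in plasma low, and 192.3, 209.3 and 167.5 CPM in plasma high. Every plasma high value exceeded every plasma none value, while TH 3 of plasma low fell among them. The log2 ratio of plasma high was 0.66 ± 0.31, and without TH 2 it was no longer called, at 0.48. Cox7b, a small subunit on the X chromosome (chrX:106015700-106022450), was at 22.6, 38.5 and 11.7 CPM in plasma none and 39.8, 52.8 and 37.4 CPM in plasma high. The ratio on the log2 scale was 0.94 ± 0.59, and it was called under each of the 16 alternatives, although the highest value of plasma none reached above the lowest of plasma high.

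Ndufa4, named for complex I and now placed in complex IV, was at 51.1, 35.96 and 46.4 CPM in plasma none and 75.7, 65.9 and 54.7 CPM in plasma high. The groups did not overlap, and the log2 ratio was 0.55 ± 0.31, not called in 3 of 16 alternatives. Cox7c, a small subunit just under the size of a call, also did not overlap, with 46.3, 39.4 and 30.1 CPM against 49.9, 52.4 and 56.1 CPM. Its log2 ratio was 0.46 ± 0.39. Cox5b and Cox6c, which flank the catalytic core, were at 0.44 ± 0.26 and 0.40 ± 0.20, and Cox5a at 0.06 ± 0.66. The lowest were Cox7a2l, a supercomplex assembly factor, at -0.18 ± 0.28, and Cox7a2 at -0.05 ± 0.29.

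Several complex IV subunits exist as isoforms tied to tissues, and in each set compared here 1 form had the higher mean level. Cox4i1 reached a mean of 157.5 CPM, while Cox4i2, the lung and hypoxia form, was read in 1 of 987 cells. Cox6a1 reached 26.9 CPM, and the heart and muscle form Cox6a2 reached 5.69 CPM and had reads in 45 of 987 cells, 1787 in all. Cox6a2 overlaps an exon of another gene on the other strand. No strand setting is given, so these reads could belong to either gene. Cox6b2, the testis form, was read in 4 cells and the muscle form Cox7a1 in 3 cells, against means of 59.3 CPM for Cox6b1 and 31.97 CPM for Cox7a2. Cox8a was at 71.4 CPM and Cox7b at 39.6 CPM, while Cox7b2, Cox8b, Cox8c and Ndufa4l2 had no read in 987 cells, which allows a share of cells with a read of up to 0.304%. Such counts cover counting error only. Per length Cox4i1 was the highest of all retained members, at 208.6 CPM per kb, with Cox8a next in the complex at 130 CPM per kb.

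Complex V makes ATP with a catalytic head, a stalk and a proton-conducting ring. Of 13 retained members 10 had a mean ratio above 0, and 2 were called higher and 0 lower (backgrounds 11% and 8.30%). The median log2 ratio of the complex was 0.16 ± 0.15. It was 0.37 without TH 1 and 0.02 without TH 2, so its size rests on single TH numbers. Atp5c1, the gamma subunit that forms the turning stalk (chr2:10056016-10080510), was at 180.9, 158.999 and 142.8 CPM in plasma none and 271.9, 342.2 and 159.3 CPM in plasma high. TH 1 and 2 of plasma high lay above plasma none and TH 3 lay within it, with a log2 ratio of 0.61 ± 0.47. The call was lost without TH 2, at 0.37, and without the top cell of each sum. Atp5j2 (chr5:145183698-145192062) was at 54.2, 79.96 and 29.9 CPM in plasma none and 56.4, 104.5 and 94.8 CPM in plasma high, a log2 ratio of 0.69 ± 0.83 that rested mainly on TH 3. Its call was kept in 13 of 16 alternatives, and without TH 3 it was not called, at 0.22.

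In the catalytic head both subunits named here had mean ratios near 0, with a wide spread for Atp5a1. Atp5b, the beta subunit with the active sites, was at 291.8, 282.6 and 318.6 CPM in plasma none and 305.6, 274.4 and 311.9 CPM in plasma high, a log2 ratio of 0.00 ± 0.06. Atp5a1, the alpha subunit, had the highest mean of all members, at 337.2 CPM, and a log2 ratio of -0.08 ± 0.38. Both subunits were still read in a larger mean share of plasma high cells, Atp5b in 53.5% ± 6.87 against 43.7% ± 2.05. TH 2 went the other way by a small amount for Atp5b, at 45.8% against 46.02%. The ring subunit is made from 3 genes, of which Atp5g3 was at 18.7 ± 11.5 CPM in plasma none and 26.9 ± 8.93 in plasma high (log2 ratio 0.60 ± 1.04), and Atp5g1 was at 26.7 ± 1.69 and 30.4 ± 16.3 (0.03 ± 0.83). Atp5g2 averaged 12.4 CPM and was not retained, and 87.4% of its 50-base windows also occur in transcripts of other genes. Atp5md, a small membrane subunit, had the lowest ratio of the retained members, at -0.49 ± 0.49. Per length Atp5c1 and Atp5b were highest, at 170 and 157.4 CPM per kb.

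The 23 members not retained had means of 0 to 20.1 CPM, and 4 of them had no read. They include 6 of the 8 complex I assembly factors. Their sums are part of the totals above and no call was made on them. Of the 94 members 41 share at least 1 window of 50 bases with a transcript of another gene. What these shared windows are, such as processed copies, repeats or overlapping genes, was not checked. An exon of another gene is overlapped by 34 members, 27 of them among the retained. Atp5o, a stalk subunit, is the plainest case, since its 2 identifiers overlap on chromosome 16 and reads could be counted for either.

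In plasma low against plasma none 9 of 71 members (12.7%) were called higher and 0 lower, against backgrounds of 7.46% and 5.76%, and the median log2 ratio was 0.12 ± 0.15 with 0.05 ± 0.03 over all genes. In 3 of 3 TH numbers 16 were higher and 2 lower, with backgrounds of 16.5% and 11.8%. With thinned cells 5 of 75 members were called higher with a background of 7.15%, so the members then stood near the background. Without TH 1, 2 and 3, under the looser rule of 2 of 2, 11 of 72, 15 of 72 and 13 of 74 were called higher, with backgrounds of 14.2%, 13.4% and 13.8%. Called lower were 4, 1 and 3, with backgrounds of 11.6%, 10.4% and 11.1%. Cox7b rose with a log2 ratio of 1.18 ± 0.81 and Ndufa3 with 0.61 ± 0.07, and both were also called in plasma high. The other called members were Atp5o (ENSMUSG00000022956), at 0.75 ± 0.37, Cox7a2 at 0.80 ± 0.40, Cox6c at 0.66 ± 0.23, Ndufv2 at 0.66 ± 0.67, Uqcrfs1 at 0.65 ± 0.52, Cox5b at 0.52 ± 0.55 and Uqcrb, a ubiquinone-side subunit of complex III, at 0.50 ± 0.42. Only Atp5o and Cox6c kept their call under each of the 16 alternatives. Cox7a2 kept it in 15, Ndufa3 in 14, Cox7b in 13, Uqcrfs1 in 11, Ndufv2 and Uqcrb in 8 each, and Cox5b in 5. The median difference in the share of cells was 10.6 percentage points in TH 1 but 3.09 in TH 2 and 6.14 in TH 3, so TH 1 of plasma low stood apart. That set also had the most genes read per cell at 50000 reads, 2004.5 in the median cell, and the part of this in the result was not tested.

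Between plasma high and plasma low the members were nearly balanced. The members' median lay at a log2 ratio of 0.05 ± 0.12, and over the alternatives it ran from -0.00 with TH 2 left out to 0.17 once each gene's top cell was removed. Of 71 members 1 was called higher and 1 lower, with backgrounds of 7.12% and 6.89%. In 3 of 3 TH numbers 11 were higher and 4 lower, with backgrounds of 13.9% and 13.1%. The member called higher was Ndufb6, at 0.76 ± 1.21, which was not called in 6 of 16 alternatives. With TH 1, 2 or 3 left out, 11, 4 and 10 members were called higher and 2, 3 and 3 lower. The backgrounds were then 12.4%, 12% and 14% higher and 13.5%, 11.7% and 12.8% lower. The member called lower was Cox7a2, the common form of subunit 7a of complex IV (chr9:79755361-79759878). It stood at 20.1, 33.5 and 24.4 CPM in plasma none and at 24.6, 27.5 and 21.7 CPM in plasma high. In plasma low it stood at 49.3, 49.5 and 37.2 CPM. Plasma low was above both other groups without overlap, and the log2 ratio of plasma high against plasma low was -0.85 ± 0.11. Its share of cells was 20.5% ± 1.67, 30.5% ± 1.05 and 22.5% ± 6.92 in plasma none, low and high. With the mean of each cell's own CPM in place of summed reads neither of its calls was made, so the pattern depends on how cells are weighted.

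The mean level ran in the order none, low, high in 27 of 71 members (38.03%) and in the reverse order in 5 (7.04%), where 23.7% and 18.2% of all genes did so. The order held in 13 of 32 members of complex I, 2 of 4 of complex II, 4 of 8 of complex III, 4 of 12 of complex IV and 4 of 13 of complex V. Ndufa1, Ndufa3, Ndufs8, Cox4i1, Ndufa4 and Atp5c1 were among them. For Ndufa3 the step from plasma low to plasma high was a log2 ratio of -0.01 ± 0.15, so those neighbours do not differ beyond their spread.

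The mitochondrial genome encodes the partners of these subunits and showed a larger difference. In plasma high against plasma none 7 of its 8 retained genes were called higher and 0 lower, with a median log2 ratio of 0.81 ± 0.21. Their sum was 6547 ± 990 CPM for plasma none, 8442 ± 1244 for plasma low and 11704 ± 2878 for plasma high, a log2 ratio of 0.82 ± 0.18 against 0.21 ± 0.07 for the nuclear members. mt-Nd5, a proton-pumping subunit of complex I, was called at 1.02 ± 0.78, and mt-Co1, the catalytic subunit of complex IV, at 0.77 ± 0.08. Ribosomal protein genes, a list added here after the values were seen, had 21 of 79 called higher and 1 lower, with a median of 0.32 ± 0.08. Both lists were known from earlier work on these data to be higher and are no independent support.

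Other lists of mitochondrial genes did not share 1 direction. Over all retained genes 11% were called higher and 8.30% lower in plasma high against plasma none, and counts in lists this short can lie near these shares. Of 17 genes of the citric acid cycle and pyruvate dehydrogenase 4 were called higher and 2 lower, with a median log2 ratio of 0.30 ± 0.19. Fh1, fumarate hydratase, which follows complex II in the cycle, rose from 14.3 ± 1.19 to 43.3 ± 12.1 CPM, a log2 ratio of 1.497 ± 0.51. Dlat, a pyruvate dehydrogenase subunit, fell by 0.86 ± 0.45 on the log2 scale. Of 12 assembly factors outside the Nduf names 1 was called higher and 1 lower, with a median of -0.18 ± 0.17, and 9 were below 0. These were Cox16, at 0.85 ± 0.25, and Sco2, which helps to load copper into complex IV, at -0.89 ± 0.50. The largest mean ratio there, 1.20 for Uqcc3, was not called. Of 9 genes for electron carriers, ubiquinone synthesis and the ATP synthase inhibitor 0 were called. The largest rise there was that of Coq9, at 0.47 ± 0.77, and the largest fall that of Etfdh, at -0.58 ± 1.48. Of 8 transporters Slc25a4, which exchanges ADP for ATP, was called higher at 0.59 ± 0.11 and Vdac3, a pore of the outer membrane, lower at -0.57 ± 0.51. Of 5 retained regulators of these genes Pprc1 was called higher, at 0.81 ± 0.42, and Gabpb1, which pairs with GABPA, lower, at -0.72 ± 0.95.

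**Figure D5:**
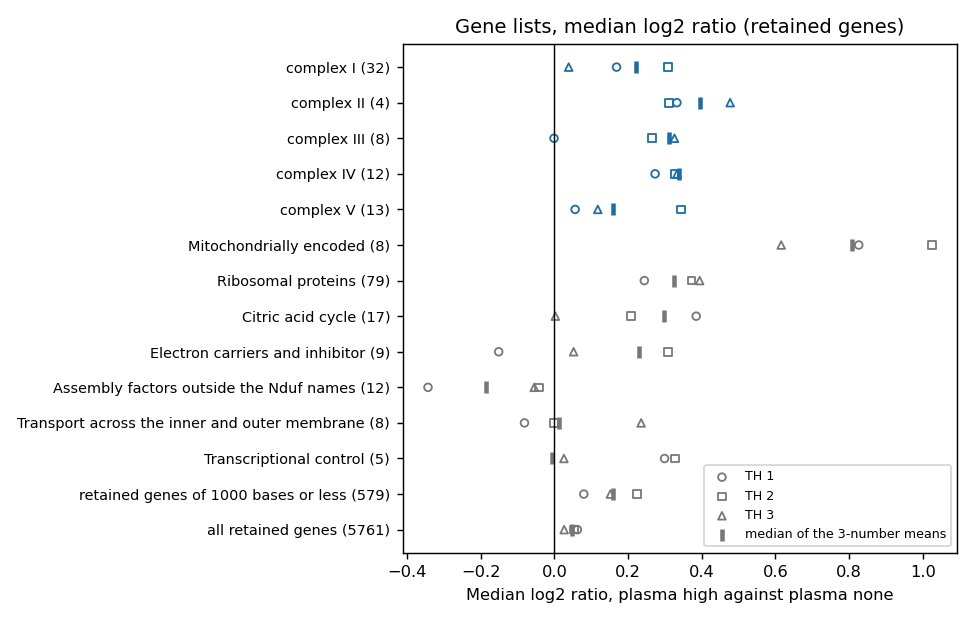
Median log2 ratio of plasma high against plasma none (x axis) over the retained genes of each list (number in brackets); vertical marks are medians of the mean ratios and open symbols the medians in TH 1, 2 and 3. The 5 complexes lie between 0.16 and 0.39, the mitochondrially encoded genes at 0.81 and all retained genes at 0.05.

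Across cells of the same group and TH number, the share of reads in members followed the share in ribosomal protein genes, with Spearman's rho from 0.121 to 0.528 over 9 sets of at least 93 cells. With the mitochondrially encoded share rho ran from -0.080 to 0.230, and with total reads from -0.215 to 0.059. Between complexes I and IV it ran from 0.035 to 0.401, and between complexes IV and V from 0.099 to 0.221. Between complexes I and V it ran from -0.048 to 0.243, and between complexes III and IV from -0.167 to 0.190. These are descriptions with no p-value, the shares of 1 cell add up to a fixed total, and in counts this sparse such weak relations are no finding.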

How the data were processed

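Single-cell Smart-seq2 libraries were analysed from the deposited tables of 1 count per gene and cell, with 1 table per TH number. The submitters' processing notes name bcl2fastq, Trim Galore, STAR 2.5.3a, Seurat and the build mm10. Neither a counting tool nor a strand setting is given in the sources used here, so reads of overlapping genes cannot be told apart. In 1 deposited column 2 values were not whole and were treated like expected counts. These expected counts had been averaged over features with 2 probes before deposit, per the file headers, and were rounded here to whole numbers. No count model was fitted. Of 1111 labelled cells 1045 matched a column by well and TH number, and 66 were not analysed here. A further 1045 columns of standard deviations were not used.

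Cells with at least 50000 reads and 500 genes were kept (987 cells, 282054715 reads), as single sorted cells with no doublet caller. Reads were summed by group and TH number and scaled to CPM with TMM factors (edgeR 4.0.16, R 4.3.3), with DESeq2 1.42.0 size factors as an alternative. Log2 ratios used a pseudocount of 1 CPM, were taken within TH numbers and averaged. Calls are descriptions, read against the share of all 5761 retained genes, with no p-value. Sums show only the spread between 3 sets of wells, which may be technical. Spliced lengths and overlaps came from GENCODE M21 (GRCm38), in which 35546 identifiers were found, 99.6% with identical coordinates.

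Named were, by complex, the 2 largest and 2 smallest ratios, every called member, core subunits, isoform sets and the 2 highest per length. The values of 1 core subunit are not reported here. From each related list the largest rise and fall were named, and called genes of those lists beyond these (mt-Co1, Cox16, Slc25a4 and the like) were chosen after their values were seen, as were the ribosomal list, the comparisons by length, by level and without overlap, and the windows shared with other genes. The members, lists and rules were chosen with earlier results of these data known. Alternatives were scaling, pseudocount, filters on genes and cells, weighting of cells, thinning, the top cell, outer wells, each TH number left out, and pooled reads.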

Additional observations from a re-analysis of the deposited data

How the results depend on the processing

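The median log2 ratio of the members in plasma high against plasma none lay between 0.21 and 0.33 over all alternatives (0.33 without the outermost wells), and that of their sum between 0.17 and 0.28 (0.28 with thinned cells). In plasma low against plasma none the median lay between 0.10 and 0.23. With no replicate block, that is from pooled reads with TH numbers not paired, the 3 medians were 0.29, 0.10 and 0.09 for high against none, low against none and high against low. In high against low the median ran from -0.0035 without TH 2, the only change of sign among these summaries, to 0.17 once each gene's top cell was removed. It was 0.14 with thinned cells, 0.12 without the outermost wells and up to 0.12 with 1 TH number left out. The medians of the complexes in high against none ran from 0.17 to 0.40 (complex I), 0.28 to 0.46 (II), 0.21 to 0.33 (III), 0.10 to 0.43 (IV) and 0.02 to 0.37 (V), so their order is not stable. Counts of members called moved more. Higher in high against none was 8, but 6 with the top cell left out, 9 with a mean of 5 CPM or no gene filter, 13 with each cell's own CPM, 16 with thinned cells, 14 without outer wells, 18 with no minimum size, 0 with a minimum of 1, and 8 to 21 with 1 TH number left out. Lower was 0, but 2 by plain library size, without ribosomal and mitochondrial genes, or in cells with 100000 reads, 3 with no gene filter, and 1 with DESeq2 size factors, a pseudocount of 0.5, no cell filter, thinned cells, the top cell left out, no outer wells or no minimum size, and 1 to 5 with 1 TH number left out. Higher in low against none was 9, but 6 by plain library size, with DESeq2 size factors or with the top cell left out, 7 with a pseudocount of 5, in cells with 100000 reads or with each cell's own CPM, 8 without ribosomal and mitochondrial genes or with no cell filter, 12 with a mean of 5 CPM or no gene filter, 5 with thinned cells, 16 with no minimum size, 1 with a minimum of 1, and 11 to 15 with 1 TH number left out. Lower was 0, but 1 with each cell's own CPM or thinned cells, 2 with no minimum size, and 1 to 4 with 1 TH number left out. Higher in high against low was 1, but 0 by plain library size, without ribosomal and mitochondrial genes, in cells with 100000 reads or with a minimum of 1, 2 with DESeq2 size factors, thinned cells or no outer wells, 3 with each cell's own CPM, 11 with no minimum size, and 4 to 11 with 1 TH number left out. Lower was 1, but 2 with a mean of 5 CPM, 4 with no gene filter or no minimum size, 0 with a minimum of 1, and 2 to 3 with 1 TH number left out. Leaving out a TH number loosens the rule to 2 of 2, and for the other changes the cause was not tested. The count read in more cells of plasma high than of plasma none was 47, 44 without outer wells, 52 with all reads and 50 to 59 with 1 TH number left out, and in fewer 0 to 3. The share of all genes in more cells ran from 31.4% to 51.3% over these settings. For low against none the counts ran from 41 without outer wells, and 45 with all reads, to 58, and in fewer from 0 to 4, where 1 to 4 came with 1 TH number left out (all genes in more cells 36.3% to 59.4%). For high against low they ran from 13 to 28, being 17 to 28 with 1 TH number left out, and in fewer from 7 without outer wells to 18, being 15 to 18 with 1 TH number left out (all genes 11.2% to 24.7% and 14.8% to 31.7%). Leaving out wells or TH numbers for these shares was chosen after seeing the data. Depth limits single members: most were read in a minority of cells, no animal is named, and the labels do not say what the 3 sets of wells stand for, so no test between groups is given.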
